A study of Homo sapiens with 9 samples.

Results

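HCT-116 is a human colon carcinoma line, and the cells described here carried a blank vector. They are the control group, named NC, of a series in which the same line was made to express the short open reading frame of LINC00266-1 or a start-codon mutant of it. NC comprised 3 of the 9 libraries of the series, taken by their labels, and no contrast with the other groups is made here. The results are the levels of 32449 genes and of the alternative splice forms in this line with the blank vector. The cells grew in RPMI medium with 10% fetal bovine serum at 37 degrees C and 5% CO2. Total RNA was taken with Trizol, and 1 ug went into each library. The samples' genotype label is blank vector, whereas the design text of the series names the group as HCT-116 with no vector mentioned. The labels do not say whether the 3 libraries came from separate cultures, so every SD measures only the spread between these libraries. RNA of a culture was measured in bulk, where fewer cells of a kind and less RNA per cell cannot be told apart.

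The lining of the colon is renewed from crypts, in which Wnt signalling through beta-catenin and TCF factors keeps stem cells dividing while their daughters mature into absorptive enterocytes, mucus-secreting goblet cells and hormone-secreting cells. Epithelial cells hold together through E-cadherin junctions, desmosomes and keratin filaments. They also splice many transcripts differently from mesenchymal cells, under the ESRP proteins. HCT-116 is known as a line with lost mismatch repair, which restores mispaired bases after replication, and with mutations that activate PIK3CA and beta-catenin. Sequence changes were not measured here, only RNA levels and splice forms.

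The 3 libraries held 20382242, 23413358 and 20842030 gene reads in NC1, NC2 and NC3. A gene was counted as detected at 1 CPM (reads per 1000000 reads) or more in every library, which 13618 genes (42.0%) were. No read at all was found for 1891 genes, for which 0 reads over the group allow a level of up to 0.0464 CPM, a limit that covers counting error only. NC3 stood apart. Across genes, log2 CPM correlated at r = 0.997 between NC1 and NC2, at 0.992 between NC1 and NC3 and at 0.988 between NC2 and NC3. In the deviation of each gene from its mean over the group, NC3 ran lower with GC content (r = -0.62 across genes, which are not independent). NC2 (r = 0.60) and NC1 (r = 0.30) ran higher. The deviations of a gene cancel out over the libraries, so these trends are not independent of each other. NC3 also had the most genes at 1 CPM or more, 14545 against 14050 in NC1 and 14012 in NC2. The count of genes that differed between libraries is given with and without NC3, and levels said to be highest in NC3 are given per library.

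Protein-coding genes took 97.6%, 97.6% and 97.4% of the reads in NC1, NC2 and NC3, and 12064 of the 16739 coding genes listed were detected. Their median level was 18.4 TPM (reads divided by gene length and scaled to the same total in each library), the scale on which genes are compared below unless CPM is given. That length is the union of all annotated exons, so TPM compared between genes depends on the annotation as well as on reads. Processed pseudogenes, intronless copies of mRNAs, took 0.692% of the reads but 3.80% of the TPM, with 283 of 3673 detected. Long intergenic noncoding RNA was detected for 309 of 3018 genes. A total of 1445 genes passed 100 TPM and 105 passed 1000 TPM.

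Mitochondrially encoded genes took 5.73%, 5.65% and 5.97% of the reads of NC1, NC2 and NC3. All 13 mitochondrial mRNAs, which encode subunits of the respiratory chain and of ATP synthase, were detected. Of the 10 genes with most reads 5 were among them: MT-CO1, a catalytic subunit of cytochrome oxidase, took 1.38% of reads, and MT-CO2 0.767%, MT-ND4 0.611%, MT-CO3 0.593% and MT-ATP6 0.584%. The other members of that set were the translation elongation factors EEF1A1 (1.07%) and EEF2 (0.439%), the chaperone HSP90AB1 (0.522%), the gamma-actin gene ACTG1 (0.489%) and the ribosomal protein gene RPS2 (0.453%). Per length, MT-CO2 led at 34622 TPM, ahead of MT-CO1 at 27727 TPM and MT-ATP6 at 26479 TPM. The highest nuclear gene was TMSB10, which encodes an actin-sequestering thymosin, at 9027, 9475 and 8067 TPM. The pseudogenes RPS28P7 (7095 TPM) and RPS2P5 (4703 TPM) also ranked high, but they are near copies of ribosomal protein genes, so how reads were shared between copy and parent is uncertain. RN7SL2, an RNA of the signal recognition particle, stood at 4289, 4613 and 7863 TPM, highest in NC3.

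Epithelial state was read from junction and keratin genes, most of which are not particular to the colon. Of the 30 junction and keratin genes, 27 were detected, with a median of 42.8 TPM. The simple-epithelium keratins led: KRT19 (chr17:41523617-41528308, GRCh38) had 1726, 1744 and 1586 TPM, KRT8 1351, 1322 and 1161 TPM, and KRT18 708, 721 and 612 TPM. All 3 keratins were lowest in NC3. The epithelial adhesion molecule EPCAM stood at 273, 271 and 300 TPM, the tight-junction claudins CLDN4 and CLDN7 at means of 186 and 150.5 TPM, and plakoglobin (JUP), a linker in desmosomes and adherens junctions, at 208 TPM. E-cadherin itself (CDH1) had 39.3, 36.6 and 42.5 TPM. The 3 members not detected were KRT20, CDH17 and CLDN1: KRT20, a keratin of mature intestinal epithelium, had 1.31, 2.48 and 2.10 TPM, and the intestinal cadherin CDH17 averaged 0.27 TPM.

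Regulators of intestinal identity were present at lower levels. Of 26 intestinal transcription factors 23 were listed and 18 detected, with a median of 7.68 TPM. SOX9, a factor of crypt and progenitor cells, had 130, 140 and 161 TPM, and its relative SOX4 averaged 153 TPM. CDX2, which defines intestinal epithelium, had 17.5, 18.3 and 15.8 TPM, while HNF4A, a factor of mature enterocytes, averaged 2.98 TPM. ATOH1, which sets the secretory fate, averaged 0.31 TPM and was not detected. CDX1, GATA4 and NEUROG3 were not listed in the gene tables.

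Of 20 stem and crypt genes, 15 were detected. MYC, which drives growth and division, had 410, 399 and 401 TPM, and the hyaluronan receptor CD44 had 128, 126 and 140 TPM. AXIN2, a feedback inhibitor that Wnt signalling induces, stood at 20.6, 20.2 and 21.4 TPM, and the ubiquitin ligases that remove Wnt receptors, RNF43 and ZNRF3, averaged 15.9 and 17.9 TPM, though 73.9% of the exon bases of RNF43 overlap other annotated genes, and reads in such overlaps cannot be told apart without strand. Among markers of stem and progenitor cells, the RNA-binding protein gene MSI1 averaged 43.5 TPM, the adhesion molecule gene ALCAM 35.8 TPM, the Polycomb gene BMI1 26.5 TPM, PROM1 9.19 TPM and the growth factor receptor inhibitor LRIG1 3.22 TPM. The receptor LGR5, the best-known marker of colon stem cells, averaged 0.036 TPM, and ASCL2, a stem cell transcription factor, had no read. SMOC2, OLFM4 and ALDH1A1 were the other 3 not detected.

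Markers of mature colon cells were mostly missing. Of 28 enterocyte genes 23 were listed, 4 passed detection and the median over those listed was 0.0897 TPM. Carbonic anhydrase 2 (CA2) was the exception, at 54.3, 57.1 and 58.8 TPM. The next were the sulphate carrier SLC26A2 (6.28 TPM) and the peptidase DPP4 (3.55 TPM). Villin (VIL1), the actin bundler of the brush border, had 0.066, 0.019 and 0.151 TPM, below detection in all 3 libraries. Of 12 goblet cell genes 3 were detected, led by FCGBP at 1.91 TPM, whereas the gel-forming mucin MUC2 averaged 0.011 TPM. Of 20 enteroendocrine, tuft and Paneth cell genes 2 were detected, SCG2, a granin of secretory granules, at 13.8 TPM and AVIL at 1.16 TPM. At a threshold of 0.5 CPM 5 were detected. PYY of the same list averaged more TPM than AVIL, 1.70, but only 0.649 CPM, and was not detected at 1 CPM.

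**Figure D1:**
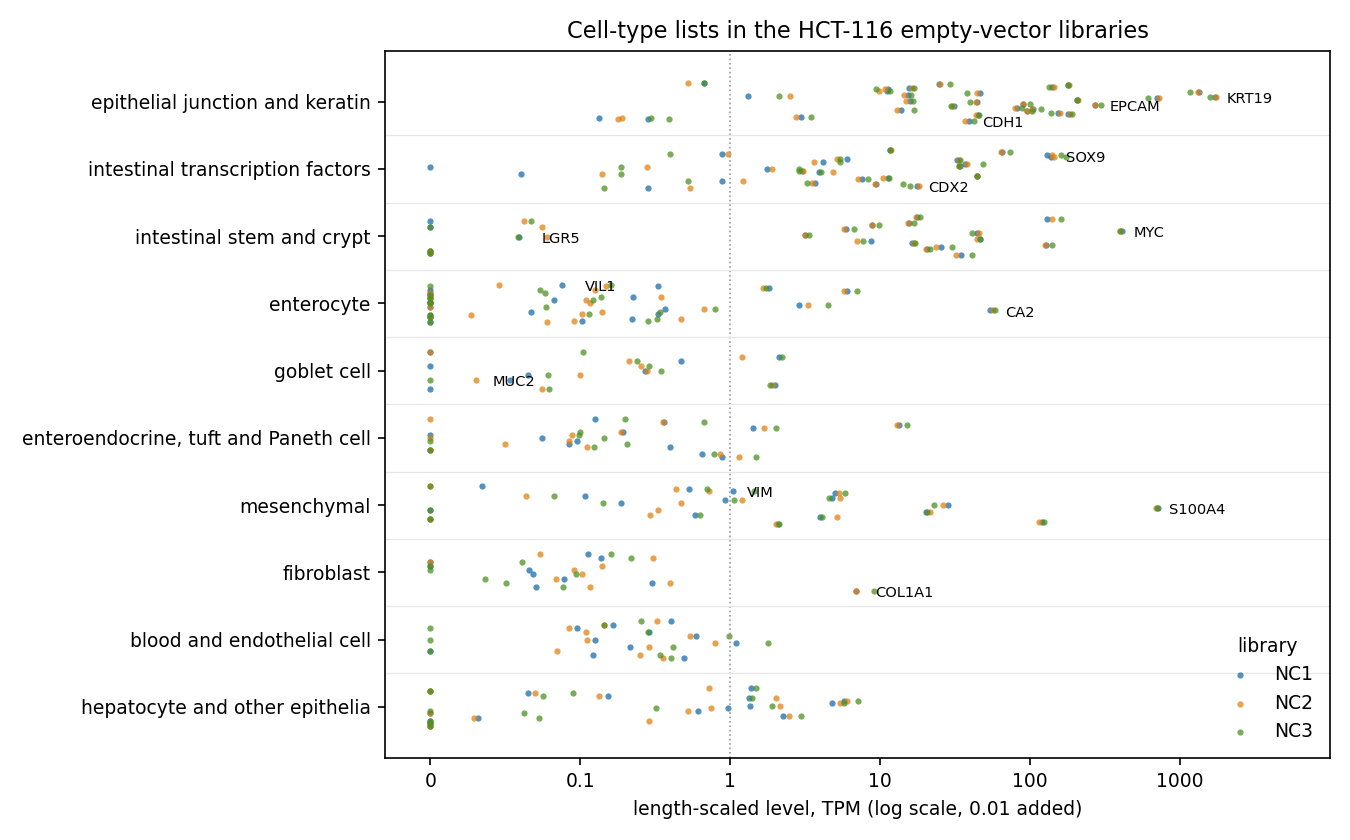
Each point is the level of a listed gene in an NC library, colored by library, in TPM on a log axis (0.01 added), by cell-type list; the dotted line stands at 1. Most epithelial genes lie right of it, with KRT19 at 1586 to 1744 TPM, and most enterocyte genes left of it, with CA2 at 54.3 to 58.8 TPM apart from the rest of its list.

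Markers of other tissues were low as whole lists. None of the 17 blood and endothelial genes was detected in all 3 libraries, 1 was without NC2 or without NC3 and 2 were at a threshold of 0.5 CPM; 11 were listed, with summed levels of 3.50, 2.97 and 4.54 TPM, and the leukocyte gene PTPRC and T cell gene CD3E were not listed. Of 12 fibroblast genes 1 was detected, the collagen chain COL1A1, at 6.90, 6.91 and 9.06 TPM. Among hepatocyte markers and markers of other epithelia, 5 of 18 were detected: PAX8 (6.27 TPM), PAX2 (5.31 TPM), GATA3 (2.56 TPM), NKX2-1 (1.79 TPM) and SERPINA1 (1.58 TPM). The albumin gene ALB and the basal-cell factor TP63 had 0 reads.

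Of 20 mesenchymal genes 11 were detected, over a wide range of levels. The calcium-binding protein gene S100A4 had 716, 693 and 699 TPM and CAV1, the caveolar coat protein, averaged 120 TPM. SNAI1, which represses E-cadherin, averaged 25.9 TPM. The intermediate filament vimentin (VIM), also detected, averaged 1.06 TPM, the repressor ZEB1 averaged 0.546 TPM, and N-cadherin (CDH2) had 0 reads.

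All 14 mismatch repair genes listed were detected. The sliding clamp PCNA, which also serves replication, averaged 553 TPM and the single-strand binding subunit RPA1 153 TPM. Of the recognition factors, MSH6 had 20.8, 20.8 and 21.2 TPM and MSH3, the partner for longer loops, 1.80, 1.70 and 2.34 TPM, the lowest of the list. PMS2, a subunit of the endonuclease that follows recognition, averaged 23.7 TPM, and EXO1, which removes the mispaired strand, averaged 21.4 TPM.

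In the Wnt pathway 24 of 34 genes were detected, with a median of 18.8 TPM over the 31 listed. Among receptors, LRP5 averaged 85.8 TPM and its relative LRP6 14.8 TPM, and FZD2 led the Frizzled receptors at 45.1 TPM. In the destruction complex, which marks beta-catenin for removal, the kinase genes CSNK1A1 and GSK3A averaged 62.1 and 61.2 TPM, AXIN1 18.8 TPM and APC 5.38, 4.41 and 6.29 TPM. Of the exon bases of CSNK1A1, 37.4% overlap other annotated genes, so its level is uncertain. The beta-catenin gene CTNNB1 had 118, 112 and 115 TPM. Of the TCF factors that carry it to DNA, TCF7L2 was highest at 67.8 TPM, followed by TCF7L1 at 18.8 TPM and TCF7 at 11.3 TPM, while LEF1 had 0 reads. The secreted inhibitor DKK1 was the highest gene of the list, at 224, 212 and 246 TPM, and another inhibitor, SFRP1, averaged 0.01 TPM.

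Among growth factors and receptors, 3 ligands of the EGF family averaged more TPM than any EGF receptor, though not all of them more reads. Of 31 receptor genes 23 were detected. The ephrin receptor EPHA2 led at 233 TPM. MET, the receptor of hepatocyte growth factor, had 83.2, 82.8 and 106 TPM. Among EGF receptors, ERBB2 averaged 34.9 TPM, EGFR 30.4 TPM and ERBB3 15.8 TPM, whereas ERBB4 averaged 0.02 TPM. These 3 ligands were higher in TPM: amphiregulin (AREG) had 303, 302 and 359 TPM and epiregulin (EREG) 194, 191 and 240 TPM, both highest in NC3, and TGFA averaged 37.9 TPM. In reads AREG and EREG averaged 171 and 385 CPM, above ERBB2 at 117 CPM and EGFR at 123 CPM. TGFA was below both receptors, at 60.9 CPM. EGF itself averaged 0.38 TPM.

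Downstream, 28 of 31 genes from RAS to ERK and PI3K were detected. The adaptor GRB2 averaged 199 TPM. The RAS genes HRAS and NRAS averaged 142 and 67.1 TPM. BRAF, the kinase below RAS, had 2.94, 2.98 and 4.69 TPM, against 34.4 TPM for its relative ARAF. Their deposited lengths are 23432 and 3535 bases, and in reads they were closer, at means of 26.8 and 39.4 CPM. PIK3CA, the catalytic subunit of PI3K, had 4.13, 3.67 and 5.97 TPM, with 35.8% of its exon bases overlapping other genes. PIK3CB averaged 22.6 TPM. BRAF and PIK3CA were both highest in NC3 and clear of the values of NC1 and NC2.

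In the TGF-beta and BMP pathway 21 of 25 genes were detected. The BMP target ID1, an inhibitor of differentiation factors, was the highest at 1160, 1192 and 1135 TPM, and ID3 averaged 291 TPM. The ligand BMP4 had 382, 383 and 367 TPM. TGFBR2, the type II receptor whose reading frame is broken in many mismatch-repair-deficient colon tumours, averaged 36.6 TPM. SMAD3 averaged 41.0 TPM, SMAD4 13.6 TPM and SMAD2 7.89 TPM. In reads SMAD2 stood above SMAD4, at means of 92.9 and 57.6 CPM, since its deposited length is 36366 bases against 13123. The order of these 2 genes is therefore uncertain.

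Of 19 cyclin, kinase and E2F genes of the cell cycle, 17 were detected, with a median of 65.8 TPM over the 18 listed. CCNB1, the mitotic cyclin, averaged 417 TPM, and CCND1, the G1 cyclin, had 338, 328 and 329 TPM, while its paralog CCND2 had 0 reads. The kinase CDK4 averaged 171 TPM against 13.7 TPM for CDK6, with 43.2% of its exon bases overlapping other genes. Of the inhibitors, CDKN1A had 378, 383 and 365 TPM, CDKN2A averaged 56.8 TPM and CDKN1B 45.9 TPM. The ubiquitin ligase gene MDM2 averaged 25.1 TPM. In the BCL2 family 15 of 16 genes were detected, and the survival members BCL2L1 (190.5 TPM, with 43.0% of its exon bases overlapping other genes) and MCL1 (132 TPM) stood far above BCL2 (1.96 TPM), and the pro-apoptotic BAX averaged 117 TPM.

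Paralogs of housekeeping systems were used unequally. In glycolysis 25 of 34 isozyme genes were detected. GAPDH had 4004, 3999 and 3559 TPM and ENO1 averaged 2262 TPM, against 66.0 TPM for ENO2 and 5.49 TPM for ENO3. LDHA averaged 528 TPM and LDHB 52.5 TPM. PKLR, the liver form of pyruvate kinase, had 0 reads. ALDOA was listed at 17.4 TPM, but 53.5% of its exon bases overlap other annotated genes, so its level is uncertain. Of the actins, ACTG1 averaged 5048 TPM and ACTB 2249 TPM, and the cardiac form ACTC1 had 0 reads. TUBB led the beta-tubulins at 1379 TPM against 4.88 TPM for the neuronal TUBB3.

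Genes silent in most adult tissues were partly present: 10 of 31 cancer-testis and oncofetal genes were detected. The chromatin architectural gene HMGA1 had 3380, 3325 and 3030 TPM, and its relative HMGA2 averaged 39.0 TPM. MAGEA3 averaged 226 TPM but is nearly identical to MAGEA6, so their split is uncertain. PRAME averaged 41.0 TPM, the telomerase gene TERT 5.95 TPM and IGF2BP2, an RNA-binding protein of fetal tissues, 118 TPM. LIN28B averaged 0.015 TPM. Of 25 chromatin and DNA methylation genes, 24 were listed and all of these were detected, led by HDAC1 (292 TPM), the maintenance methyltransferase DNMT1 (124 TPM) and its partner UHRF1 (118 TPM).

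In antigen presentation 15 of 20 genes were detected. HLA-C averaged 412 TPM, HLA-E 164 TPM and HLA-B 109 TPM, with the shared light chain B2M at 112 TPM. Class I genes are near copies of each other, so reads may be shared. PSMB9, a subunit of the immunoproteasome, averaged 8.22 TPM and its fellow PSMB8 0.36 TPM. The checkpoint ligand gene CD274 averaged 1.10 TPM.

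Long noncoding RNAs were led by host genes of small nucleolar RNAs: SNHG6 had 435, 443 and 424 TPM, LRRC75A-AS1 averaged 384 TPM, SNHG19 297 TPM, SNHG8 198 TPM and GAS5 182 TPM. Of the exon bases of SNHG6, 36.4% overlap other annotated genes, as do 17.8% of those of LRRC75A-AS1, so their levels and order are uncertain. UCA1 averaged 57.0 TPM and PVT1 24.6 TPM. The nuclear RNA NEAT1 had 14.6, 12.6 and 23.8 TPM and MALAT1 16.3, 17.6 and 31.03 TPM, both highest in NC3. LINC00266-1, the gene the series is about, had 1 read in NC1 and 0 reads in NC2 and NC3, so its level was below detection at this depth.

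The spread between libraries was small for most genes but followed GC content and length. Of 9796 genes at 10 CPM or more, the median ratio of the highest to the lowest library was 1.12. A total of 304 genes (3.10%) differed by over 1.5-fold, of which 288 were highest in NC3 and 267 lowest in NC2. Without NC3 the number was 10, without NC2 it was 62 and without NC1 281. These 304 genes had a median GC content of 38.0% against 48.9% over all 9796, and a median longest transcript of 6360 bases against 3825 bases. In genes of 35 to 40% GC the median deviation from the mean on the log2 scale was -0.05 in NC1, -0.14 in NC2 and 0.20 in NC3, and in those of 60 to 65% GC it was 0.02, 0.04 and -0.06. The part of library preparation or of RNA quality in this spread was not tested.

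The 10 genes with the widest ratios included genes with near copies. SERF1B had 4.96, 24.0 and 4.37 CPM, a 4.65-fold ratio, and has a near-identical copy in the genome. U2AF1, a recognition factor of 3′ splice sites, had 17.8, 12.5 and 50.7 CPM and also has a near-identical copy in GRCh38, so both levels are uncertain. CENPE, a kinesin of mitosis, had 15.6, 10.4 and 25.1 CPM, and VPS13A, a lipid carrier, 44.0, 33.8 and 78.1 CPM. The splicing kinase CLK1 had 13.1, 10.9 and 23.9 CPM, and NKTR 51.1, 37.7 and 78.0 CPM. In U2AF1, CENPE, VPS13A, CLK1 and NKTR, NC3 was the highest library and NC2 the lowest. MRPL23, of the mitochondrial ribosome, ran the other way at 48.9, 31.6 and 23.0 CPM. The pseudogene DHFRP1 with 6.67, 16.2 and 10.6 CPM, RN7SL3 with 13.1, 16.4 and 29.99 CPM and ZBTB41 with 17.7, 11.96 and 24.7 CPM completed the 10 genes with the widest ratios.

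**Figure D2:**
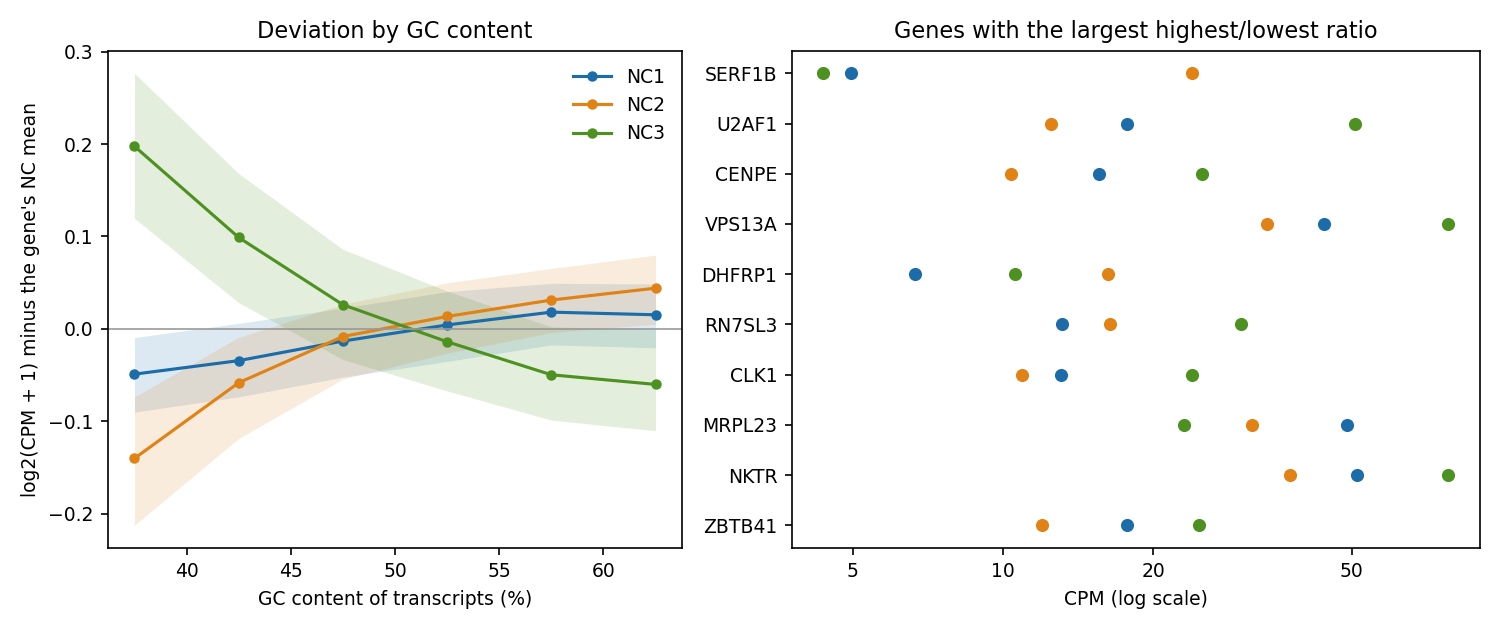
Left, median deviation of each NC library from the gene's mean, on the log2(CPM + 1) scale, by GC content in percent, with shading from the lower to the upper quartile over genes at 10 CPM or more; right, CPM on a log axis in each library for the 10 genes with the largest ratio. NC3 lies highest in AT-rich genes (0.20 at 35 to 40% GC) and lowest in GC-rich genes (-0.06 at 60 to 65% GC), and it is the highest library in 7 of the 10 genes.

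Splice forms were read from the inclusion level, the share of spliced transcripts with the event's flanking exons that hold the alternative segment, from 0 to 1. For an alternative splice site the segment is the stretch between the sites, and for a retained intron it is the intron. The deposited cells list 3 NC values per event without naming the library, so values are given in their listed order. An event was used where all 3 values were present and the mean was at least 20 reads, and it was mixed where the mean level lay between 0.05 and 0.95. Most exons tested were simply included: of 62280 skipped-exon events, 46433 (74.6%) lay above 0.95, 5151 (8.27%) below 0.05 and 10696 (17.2%) were mixed, in 4952 genes. Mixed levels took a larger share of alternative 3′ sites (1707 of 4824, 35.4%), alternative 5′ sites (1177 of 3301, 35.7%) and retained introns (1716 of 3729, 46.0%). The median SD of a mixed level over the 3 values was 0.0588 for skipped exons and 0.0433 for retained introns, and that spread is the error behind each level.

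**Figure D3:**
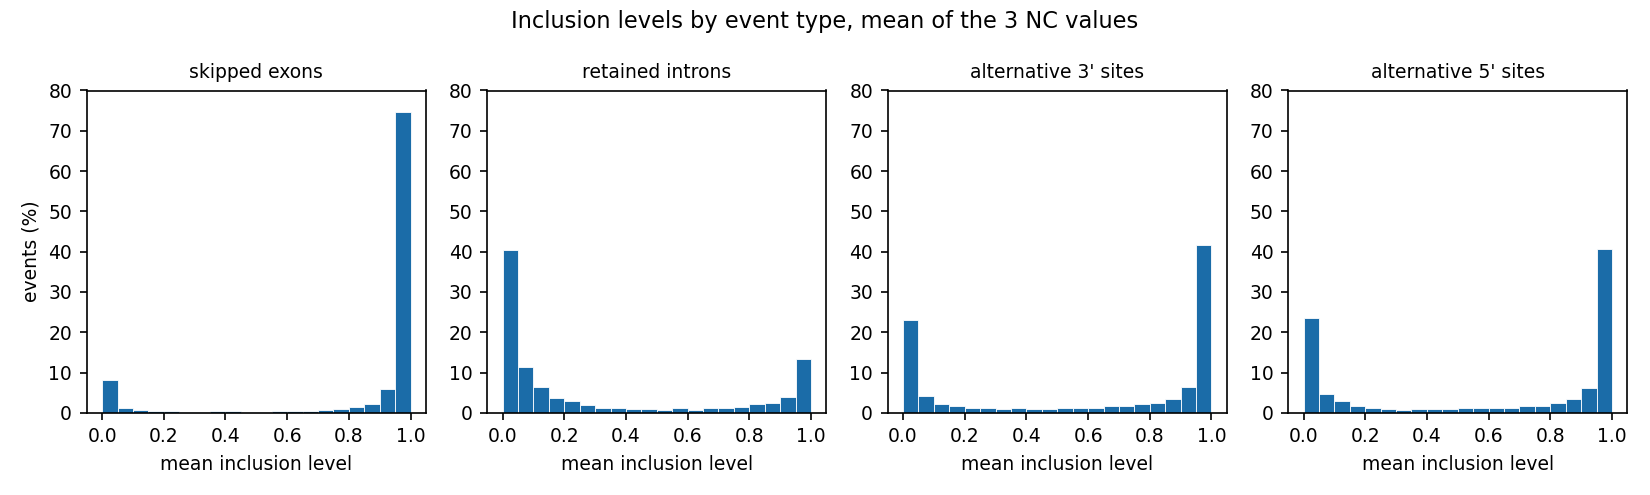
Bars give the percent of events used in each bin of mean inclusion level, from 0 to 1 in steps of 0.05, for 4 event types. Skipped exons pile up above 0.95 (74.6%), whereas 40.5% of retained introns lie below 0.05 and 46.0% in between.

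Mutually exclusive exon pairs were mixed in 11483 of 14626 events (78.5%). Of the mixed pairs, 10544 had both exons among the skipped exons used, and in 7937 of them (75.3%) both exons had a level above 0.95 as skipped exons. A high level of both exons means that most transcripts hold them together, so the pairs are not described further except for textbook ones.

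Counting each exon once, by its event with most reads, left 47371 exons, of which 8020 (16.9%) were mixed. A length that is a multiple of 3 leaves the reading frame intact when the exon is skipped. Of exons coding over their whole length, 54.0% of the 5010 mixed ones kept the frame, as did 73.7% of the 914 ones under 0.05 and 39.5% of the 30083 ones over 0.95. The share was 76.5% at levels of 0.05 to 0.2, 66.0% at 0.4 to 0.6 and 48.1% at 0.8 to 0.95. Exons of up to 30 bases, or microexons, were mixed in 140 of 519, and 72.1% of those 140 kept the frame. Nonsense-mediated decay is the pathway that destroys mRNAs with early stop codons. Among mainly skipped exons of all kinds, 35.7% were annotated in a transcript bound for it and in no protein-coding one. The share was 8.59% of mixed and 2.32% of included exons.

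Alternative 3′ splice sites 3 bases apart, tandem acceptors at which the spliceosome takes either of adjacent AG dinucleotides, were mostly mixed: 424 of 539 (78.7%), with a median level of 0.662. At 13 to 100 bases 29.8% of 2197 events were mixed. The extra triplet ended in AG in 538 of the 539. Its first base went with the level. Where the triplet was CAG (384 events) the median level was 0.572 and 87.5% were mixed, TAG (46 events) had a median of 0.675, AAG (90 events) 0.932 and GAG (18 events) 0.990. In an alternative acceptor a high level means that the upstream site was used, so CAG, TAG, AAG and GAG name the 3 bases that the upstream site adds to the exon, which are the end of the intron when the downstream site is used. These shares are descriptions over events of the same libraries.

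The following tandem acceptors, with exons on both sides, show that letter and its level in RNA-binding, kinase and signalling genes. Bases are from GENCODE 29 transcripts of GRCh38, 5′ to 3′ on the gene's strand, in lower case for the shared bases and in capitals for those found only in the longer form.
CLK2: ccgttctcgaagCAGttatgatgatcg
GNAS: caacagcgatggCAGtgagaaggcaac
SRSF10: tagtcctagaaaCAGtagaccgactgg
RBFOX2: ggatctcttacgCAGacagaaggtgga
HNRNPC: gcaaacaagcagTAGagatgaagaatg
TRA2A: ttaccgatacagAAGacgatcaccttc
PTMA: aacgggaatgctGAGaatgaggaaaat
The CAG sites lay between the extremes. CLK2 (chr1:155269714-155269716, minus strand), a kinase of splicing factors, had levels of 0.667, 0.691 and 0.594. The G-protein subunit gene GNAS (chr20:58903528-58903530, plus strand) had 0.633, 0.631 and 0.642. The splicing factors SRSF10 (chr1:23971624-23971626, minus strand) and RBFOX2 (chr22:35781744-35781746, minus strand) had 0.773, 0.798 and 0.767, and 0.300, 0.337 and 0.345. The TAG of HNRNPC (chr14:21211564-21211566, minus strand) was kept at 0.939, 0.949 and 0.941 and the AAG of TRA2A (chr7:23505811-23505813, minus strand) at 0.944, 0.951 and 0.943. PTMA (chr2:231711887-231711889, plus strand), which encodes prothymosin, went against the median of its letter: its GAG was kept at 0.086, 0.087 and 0.083, from a mean of 13689 reads, the most of any mixed alternative acceptor.

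Of alternative 5′ sites, where the intron begins, 411 of 3301 lay within 12 bases, against 1000 of 4824 alternative 3′ sites. The segment began with GT, the donor dinucleotide, in 2822 of 2890 events over 12 bases (97.6%) and in 340 of 380 at 4 to 12 bases (89.5%). The 4-base spacing favoured the shorter exon, with a median level of 0.0863, and 46.5% of these events were below 0.05. Examples in coding sequence, again with the bases of the longer form in capitals, were from a Wnt transcription factor, a splicing factor and an RNA-binding protein, and a microexon is shown with them.
TCF7L2: gctaggatgGTTAGTACCACAgcaaggtca
U2AF2: gccacgctgGTGAGCCCCCCGagcaccatc
TAF15: tatggacaaaGTCAGTCAGgttattcaca
MACF1: taccggTTCTTCCTCGGCAATCAGtttggg
The 12 bases of TCF7L2 (chr10:113144014-113144025, plus strand) were kept at 0.833, 0.883 and 0.816, and those of U2AF2 (chr19:55669170-55669181, plus strand) at 0.193, 0.205 and 0.201. The 9 bases of TAF15 (chr17:35820240-35820248, plus strand) were kept at 0.730, 0.778 and 0.731. The 18-base exon of MACF1 (chr1:39465095-39465112, plus strand), a linker of actin and microtubules, was included at 0.392, 0.401 and 0.281.

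Among the retained introns used, the median level was higher at greater length, up to a point. It was 0.046 for 701 introns of up to 100 bases and 0.109 for 1065 of over 200 and up to 500 bases. For 402 of over 1000 and up to 2000 bases it was 0.165. For the 174 over 2000 bases it was 0.144. Reads within the intron count towards the retained form in these levels. Among mixed retained introns the highest of the listed values was the third in 48.9%, the first in 24.4% and the second in 21.1%, with medians of 0.244, 0.218 and 0.202 for the third, first and second value.

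**Figure D4:**
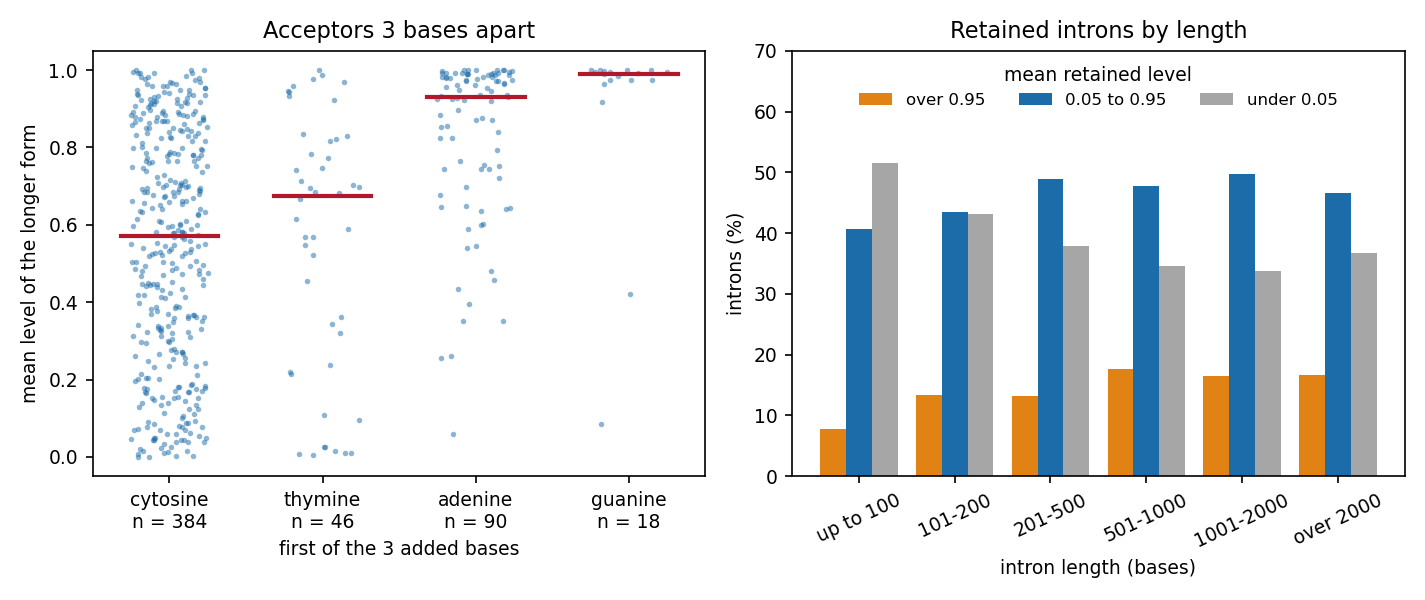
Left, mean level of the longer form at each acceptor pair 3 bases apart, by the first of the 3 added bases, with the median as a bar; right, percent of retained introns by length in bases with a mean level over 0.95, of 0.05 to 0.95, or under 0.05. The medians stand at 0.572 for cytosine and 0.990 for guanine, and the share under 0.05 is 51.5% for introns of up to 100 bases and 36.8% for those over 2000.

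The epithelial splice forms were then read in genes known to switch between epithelial and mesenchymal cells. Their regulators ESRP1 and ESRP2 averaged 93.5 and 42.5 TPM, and RBFOX2, which acts in mesenchymal cells, 46.2 TPM. In 28 of 30 such genes (93.3%) at least 1 event was mixed. Over all 10328 genes with an event used the share was 58.9% (6080 genes), and shares of gene lists given here are descriptions to be read beside it. FGFR2, a fibroblast growth factor receptor, carried its epithelial exon: the IIIb exon (148 bases, chr10:121518682-121518829) was included at 1, 1 and 1, from a mean of 28.7 reads, the mesenchymal IIIc exon (145 bases, chr10:121517319-121517463) at 0, 0.01 and 0, and read as an exclusive pair the IIIb share was 1, 0.987 and 1. For CTNND1, ARHGEF11 and ITGA6 only mixed events were taken, so a level at either end could not appear. The 72-base exon of CTNND1, the catenin p120, was included at 0.727, 0.705 and 0.691. The 63-base exon of ENAH, known as 11a and epithelial, was included at 0.282, 0.347 and 0.268, and the 120-base exon of ARHGEF11 at 0.503, 0.574 and 0.569. ITGA6, an integrin of the basement membrane, kept its 130-base exon at 0.711, 0.810 and 0.804.

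In CD44 the levels of the variable exons, which lengthen the stem of the receptor, depended on the flanks of the event. Between the same constant exons, the 204-base variable exon (chr11:35211246-35211449) was included at 0.748, 0.779 and 0.813, the 126-base one at 0.517, 0.507 and 0.566, the 102-base one at 0.423, 0.504 and 0.504 and the 90-base one at 0, 0.081 and 0.088. Each of these levels sets reads that join the exon to its flanks against reads that join the constant exons directly. Reads within the exon count too. Only the 204-base exon is longer than the 149-base skipping form, so the levels are not like measures. Transcripts can hold several variable exons, so the levels do not sum to 1. The events with most reads had another variable exon as a flank. There the 90-base exon stood at 0.985, 0.991 and 0.992 and the 102-base one at 1, 0.996 and 0.997. The 204-base exon then stood at 1, 0.963 and 0.974 and the 126-base one at 0.456, 0.348 and 0.41. Between the constant exons, the values of the 102-base and 126-base exons lay side by side without overlapping. The 204-base and 90-base ones stood clear above and below them there.

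Of 23 metabolic and signalling genes, 18 (78.3%) had a mixed event. PKM, pyruvate kinase, had 992, 982 and 952 TPM, and its exon of the adult muscle form M1 took a share of 0.083, 0.086 and 0.084 against the exon of the M2 form, from a mean of 14138 reads. RAC1 included the 57-base exon of the self-activating form Rac1b at 0.062, 0.068 and 0.056, and HRAS its 82-base exon, which cuts the protein short, at 0.078, 0.082 and 0.070. The insulin receptor gene INSR included the 36-base exon of its B form at 0.114, 0.101 and 0, from only 43.3 reads on average. APP, the amyloid precursor, kept the 168-base protease inhibitor exon at 0.855, 0.857 and 0.843 and the adjacent 57-base exon at 0.421, 0.426 and 0.385. In GNAS the 45-base exon of the long form was included at 0.546, 0.576 and 0.557.

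Of 13 apoptosis and cell cycle checkpoint genes, 8 (61.5%) had a mixed event. BCL2L1 used the 189 bases of the long, protective form (chr20:31721655-31721843) at 0.935, 0.95 and 0.928, from 2312 reads. FAS, a death receptor, included its 63-base membrane exon at 0.666, 0.901 and 0.628, but with a mean of 22.7 reads. BIRC5, survivin, kept its 118-base exon at 0.892, 0.880 and 0.902 and took in an extra 69-base exon at 0.132, 0.109 and 0.131. The 3 values lay close together in both BIRC5 exons and far apart in FAS.

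Of 41 splicing regulator genes, 35 (85.4%) had a mixed event. PTBP1, a repressor of exons with 379, 387 and 353 TPM, kept the 78-base exon between its RNA-binding domains at 0.657, 0.632 and 0.660. HNRNPA1 included the 156 bases of its longer protein at 0.113, 0.125 and 0.132, from 8206 reads. HNRNPA2B1 included the 36-base exon that makes B1 rather than A2 at 0.189, 0.177 and 0.190. HNRNPD used its 57-base exon at 0.856, 0.861 and 0.862 and its 147-base exon at 0.403, 0.400 and 0.429. In HNRNPC the donor that adds the 39 bases of the C2 protein was used at 0.360, 0.359 and 0.309. In all of these the 3 listed values lay close together.

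The exons by which SR proteins limit their own amounts, known as poison exons since they bring an early stop codon, were included at low levels. TRA2B held its 276-base exon at 0.069, 0.045 and 0.074, SRSF6 its 268-base exon at 0.076, 0.057 and 0.078 and SRSF7 its 449-base exon at 0.062, 0.043 and 0.068. Transcripts with such exons decay, so a level here is the share found in RNA and not the share spliced. EIF4A2, a translation helicase, held its 111-base exon, annotated in decay transcripts and in no protein-coding one, at 0.192, 0.195 and 0.190. U2AF1 has 67-base alternative exons at chr21:43101366-43101432 and chr21:43100453-43100519 that are known to replace each other. The listed values were 0.756, 0.674 and 0.301 for the first of these and 0.250, 0.092 and 0.334 for the other, so the level of the first was far lower in the third value, in a gene whose reads are uncertain.

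Of 30 genes known to retain or detain introns, 28 had an event used and 27 a mixed event of some kind. A retained intron was mixed in 18 of the 21 with an intron event used (85.7%), against 1171 of 2118 over all genes (55.3%). OGT, the enzyme that attaches O-GlcNAc, held its 3271-base intron (chrX:71544636-71547906) at 0.355, 0.367 and 0.448. CLK1 held a 1491-base intron at 0.639, 0.544 and 0.682, EZH2, the methyltransferase of Polycomb, a 1098-base intron at 0.822, 0.694 and 0.890, and the helicase DDX5 a 1236-base intron at 0.215, 0.213 and 0.279. MAT2A, which makes S-adenosylmethionine, held a 191-base intron at 0.121, 0.105 and 0.182. The third value was the highest for OGT, CLK1, EZH2, DDX5 and MAT2A.

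Of 25 colorectal cancer genes, 21 had an event used and 14 (66.7%) a mixed event. In CTNNB1 the 464-base intron of the 3′ UTR (chr3:41239355-41239818) was kept at 0.405, 0.384 and 0.466, from 1146 reads. SMAD2 included its 90-base exon, without which the protein binds DNA, at 0.921, 0.935 and 0.948. TGFBR2 included the 75-base exon of its longer extracellular form at 0.221, 0.261 and 0.165. VEGFA included the 132-base exon that lets the growth factor bind the matrix at 0.382, 0.413 and 0.421, and MST1R, the receptor RON, kept the 147-base exon at 0.662, 0.704 and 0.740. Loss of that exon is known to give a constantly active RON protein.

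**Figure D5:**
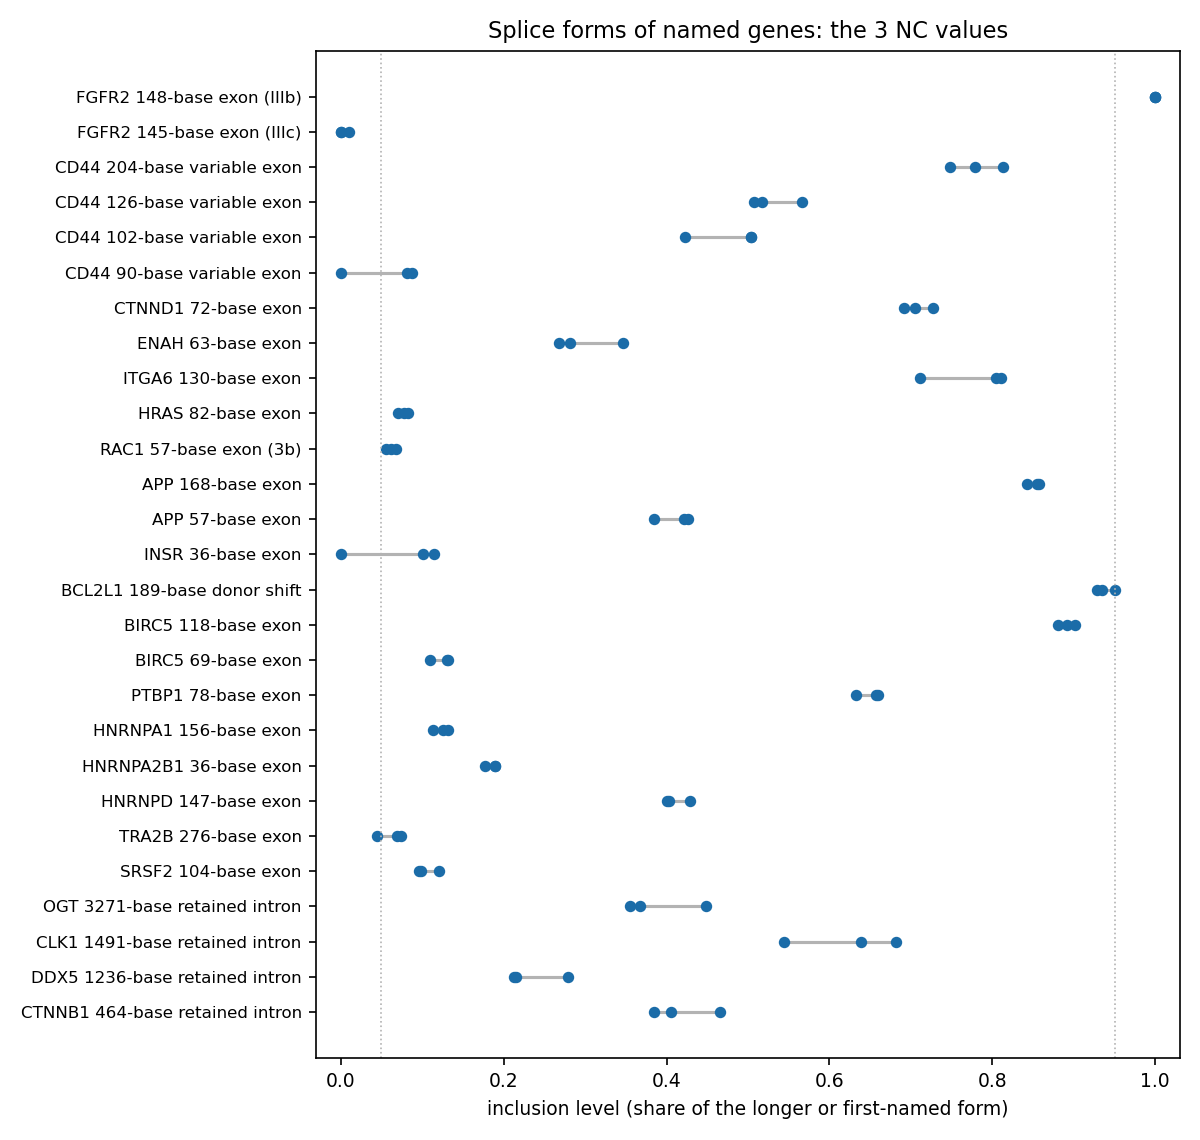
Points are the 3 listed NC values of the inclusion level, from 0 to 1, of named splice forms, joined by a line from the lowest to the highest; dotted lines stand at 0.05 and 0.95. The FGFR2 IIIb exon is at 1 in each value. The CD44 exons, taken between constant flanks, spread between 0 and 0.813, and the values of INSR and CLK1 lie far apart.

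Several of the mixed events with most reads lay in highly expressed genes. Among skipped exons, RPS2 listed a 713-base exon at 0.893, 0.9 and 0.908 from 23548 reads. HMGA1 kept a 114-base exon at 0.895, 0.908 and 0.907 from 18420 reads. HMGA1 also used the donor that adds the 33 bases separating its a and b proteins at 0.700, 0.709 and 0.699, from 11260 reads. Among introns, RPS16, a ribosomal protein gene, listed a 1896-base intron at 0.717, 0.711 and 0.678. All reads within such long segments count towards the longer form. Over the group that form took 69323 reads against 1322 for skipping in RPS2, and 49090 against 1509 in RPS16. How many of these came from other transcripts within the segment was not tested, so neither level is a measured share of transcripts. The acceptor of RPLP0, of the ribosomal stalk, that adds 60 bases was used at 0.137, 0.130 and 0.132. The 3 values of each of these 5 events lay close together.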

How the data were processed

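RNA-seq of 3 HCT-116 blank-vector libraries was analysed here. The deposited gene tables hold a signal per gene, namely read counts that the authors divided by a size factor per library, as the values themselves show; reads were recovered from their steps, and 100% of values came within 0.1 of a whole number. NC reads were the same in both tables for all 29612 shared genes (31088 and 30973 listed). The builds GRCh38 and hg38 are given per the submitters' processing notes; the aligner, the counter and its strand setting were not found in the labels or file headers. Levels are reads per 1000000 (CPM), or reads divided by the deposited gene length and scaled to TPM; that length equals the union of GENCODE 29 exons for 100% of genes. The other 6 per-sample columns of the gene tables were not used, and 26 date-like entries among the symbols were named from their gene IDs.

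The deposited splicing tables hold inclusion levels and reads that the authors gave for 3 values per group in a cell, without library names; cells in which values ran together were split where the reads gave the listed levels within 0.001. Of 111890 events in either table, 71268 were in both, 0 with other NC levels. The whole segment is counted in the longer form. In mutually exclusive pairs the level is that of the first exon in genome order on the plus strand and of the second on the minus strand, as all 8187 and 8441 pairs of unequal length show.

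With 1 group there is no contrast, so no count test was run and no p is given; values are given per library, with SD over 3 libraries where printed. Of each list the members with the highest TPM were named with members its name calls for that were low; of splicing genes, the mixed events with most reads, at most 2 per gene; over all genes, those with most reads, highest TPM or widest spread. The exclusive pairs of FGFR2 and PKM, the single FGFR2 exons, the CD44 exons and the 63-base exon of ENAH fall outside this rule. They were chosen after their values were seen. Members and lists were chosen with earlier results of these data known. A few members of the lists are counted but not reported here by name. Intervals are not given, and the floor of 3 counts covers counting error only. Python 3.11.15, numpy 2.4.6, pandas 2.3.3, matplotlib 3.10.9, R 4.3.3 and edgeR 4.0.16 (for TMM factors alone) were used. Only the splitting of cells in which values ran together was tested on simulated reads.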

Additional observations from a re-analysis of the deposited data

How the results depend on the processing

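No paired analysis was possible because the values come from 1 group and no test. The 13618 detected genes became 30558 when 1 read in any library was enough, and 13705 to 13839 when 1 library was left out. The 304 genes with over 1.5-fold between libraries became 149 with a pseudocount of 5 CPM in place of 1, and between 10 (without NC3) and 281 (without NC1) when 1 library was left out, an alternative chosen after seeing the data. The percent of mixed events was set by the minimum of reads and the bounds. With at least 10 reads it was 19.5% for skipped exons, 48.2% for retained introns, 37.7% for alternative 3′ sites and 38.3% for alternative 5′ sites. With at least 50 reads these were 13.7%, 41.2%, 30.5% and 30.9%, and with bounds of 0.1 and 0.9 they were 10.2%, 30.6%, 24.8% and 24.8%. From the ORF table alone skipped exons gave 19.01%, alternative 3′ sites 37.1% and alternative 5′ sites 37.3%, and from the MT table alone 20.7%, 38.1% and 38.9%. Leaving out each listed value in turn gave 17.3% to 17.5%, 44.4% to 46.3%, 35.7% to 36.1% and 35.6% to 36.0% for the 4 types in the same order. Frame-preserving exons were 46.3% of all mixed exons, 45.4% with at least 10 and 47.5% with at least 50 reads, and 38.5%, 38.5% and 38.7% of included ones. Why these values moved was not tested beyond the events that each setting adds or drops. At 5 CPM, 2 enterocyte, 1 goblet cell and 6 mesenchymal genes were detected, against 4, 3 and 11 at 1 CPM. Counts per event limit weakly covered forms: FAS and FGFR2 rest on means of 22.7 and 28.7 reads.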
